A study of Mus musculus with 11 samples.

Results

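The Myc family and its partner genes, Myc, Mycn, Mycl, Mxd1, Mxi1, Mga and Max, were examined in maps of open chromatin from the lung epithelium of fetal mice. Their chromatin was taken to be every peak whose nearest protein-coding gene body, at most 100 kb away, was one of these 7 genes. The rule uses gene names and distances and no measured difference. It took 743 of 981265 peaks in the 11 deposited peak lists, and 66 of the 83262 regions that could be compared between libraries. All 7 genes had at least 3 regions.

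Myc, Mycn and Mycl encode transcription factors with a basic helix-loop-helix leucine zipper, which bind DNA at the E box CACGTG only as a pair with the protein Max and drive genes of ribosome production, metabolism and the cell cycle. Mxd1 and Mxi1 pair with Max as well and repress, through Sin3 and histone deacetylases, genes that Myc activates. Mga also pairs with Max and belongs to a repressive Polycomb complex. In the developing lung Mycn is known for its high expression in the epithelial buds and for supporting their growth, and Mycl takes its name from lung tumours in which it was first found amplified.

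ATAC-seq marks open chromatin as the DNA that a transposase can reach and cut. It was run on lung cells of E17.5 fetuses that had been captured with microbeads against the epithelial surface protein EpCAM. The 6 control libraries carry the genotype label Control, and the labels do not say which floxed alleles those fetuses had or whether they carried Cre. The 5 knockout libraries carry the label Prdm3/16KO, for floxed alleles of Prdm16 and Prdm3 deleted with ShhCre, an allele with Cre at the Shh locus that is active in lung epithelium. In the stated breeding, ShhCre came from the fathers, which were Prdm3fl/fl and Prdm16fl/wt, and the mothers were Prdm3fl/fl and Prdm16fl/fl. Prdm3 and Prdm16 encode zinc finger proteins that regulate chromatin, and the series asked how accessibility differs without them. Separate animals are not stated, so p-values measure the spread between these libraries, which may be technical.

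The lists held 72935 to 112297 peaks, and the read depth behind them is unknown. Each list was therefore reduced to its 72935 strongest peaks, and each peak was given a rank score from 1 for the strongest peak of its library towards 0, with 0 for no peak. The score is a position among the peaks of a library, so it cannot tell fewer cells with an open region from less accessibility in each cell. Of 8 epithelial marker genes, 7 to 8 had a peak at the gene in every library of both genotypes. Of 7 mesenchymal markers 6 to 7 had one in controls and 4 to 7 in knockouts, and the summed best score of that list was 3.17 to 3.46 in controls and 2.17 to 2.79 in knockouts. Endothelial markers with a peak numbered 3 of 6 in every control and 2 to 3 in knockouts, with summed scores of 1.65 to 2.11 and 1.27 to 1.88 and no peak at Cdh5 or Tie1 in any library. Blood and immune markers numbered 2 to 5 of 6 in controls and 2 to 3 in knockouts, with summed scores of 1.24 to 1.98 and 0.916 to 1.69 and no peak at Gata1 in any library. The mesenchymal sums did not overlap between genotypes, and the part of other cell types in the differences below was not tested.

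Promoters are shown here for the genes at which the starts and the distant regions behaved differently, from the RefSeq promoter table of build GRCm38.p6, which has the coordinates of mm10. Each runs 5′ to 3′ on the strand of the gene, over 270 bases of which 250 lie before the start, and 6 of the 7 genes matched an entry. Capitals mark the E box CACGTG, the E2F-type sites TTTGGCGC and TTTCGCGC on either strand, and the TATA box TATAAA. Mycn and Max are shown because their starts kept open chromatin while regions around them fell, Mycl because none of its regions was called, and Mxi1 because its starts had different peaks.
Mycn (chr12:12941817-12942086, minus strand): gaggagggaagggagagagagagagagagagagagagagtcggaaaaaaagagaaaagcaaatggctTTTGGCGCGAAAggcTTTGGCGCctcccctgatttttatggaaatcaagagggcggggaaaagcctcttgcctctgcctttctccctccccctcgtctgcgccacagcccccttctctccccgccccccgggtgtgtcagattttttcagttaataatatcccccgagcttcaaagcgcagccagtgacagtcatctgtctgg
Max (chr12:76962229-76962498, minus strand): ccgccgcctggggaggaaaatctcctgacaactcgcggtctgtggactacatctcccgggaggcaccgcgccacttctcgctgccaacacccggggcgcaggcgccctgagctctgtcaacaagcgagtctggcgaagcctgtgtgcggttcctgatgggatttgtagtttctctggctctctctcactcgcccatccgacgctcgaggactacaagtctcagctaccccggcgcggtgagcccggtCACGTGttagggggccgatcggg
Mycl (chr4:122995681-122995950, plus strand): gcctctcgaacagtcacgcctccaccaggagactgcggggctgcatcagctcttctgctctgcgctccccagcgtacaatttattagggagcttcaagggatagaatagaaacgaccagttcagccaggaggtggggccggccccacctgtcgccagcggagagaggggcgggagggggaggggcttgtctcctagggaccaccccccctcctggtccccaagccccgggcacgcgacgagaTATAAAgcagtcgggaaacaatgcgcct
Mxi1, first start (chr19:53310256-53310525, plus strand): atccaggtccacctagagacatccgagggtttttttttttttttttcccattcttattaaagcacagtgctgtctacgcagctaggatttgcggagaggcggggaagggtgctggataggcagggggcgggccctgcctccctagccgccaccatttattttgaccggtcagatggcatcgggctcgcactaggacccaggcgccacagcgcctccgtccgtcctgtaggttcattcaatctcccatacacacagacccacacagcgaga
Mxi1, inner start (chr19:53329163-53329432, plus strand): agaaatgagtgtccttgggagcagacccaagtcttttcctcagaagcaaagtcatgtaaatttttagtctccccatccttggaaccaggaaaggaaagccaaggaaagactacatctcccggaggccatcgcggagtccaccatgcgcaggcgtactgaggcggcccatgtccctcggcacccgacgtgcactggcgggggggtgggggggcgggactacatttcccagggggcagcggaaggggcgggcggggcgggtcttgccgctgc

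The Max promoter held 1 E box, whose first base lies 3 bases before the start, and 6.57% of the 32851 mouse promoters of that length in the table held one. The Mycn promoter held TTTGGCGC at 2 places, against 0.463% of promoters with any, and TTTCGCGC at 1 place, read on the other strand and overlapping one of the former, against 0.283%. Mycl held a TATA box, as did 12.9% of promoters. The Mxi1, Mxd1 and Mga promoters held none of these letters. G and C made up 76.7% of the Mxd1 promoter, 64.1% of that of Max, 63% of that of Mycl, 60% of that of Mga and 54.4% of that of Mycn, beside a median of 52.6% over all promoters.

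Over the 7 genes, 18 of 66 regions were lower in the knockout and 7 were higher, by limma with an adjusted p under 0.05, and 41 were not called. Lower regions were 27.3% of the regions of these genes and 20.8% of all regions, and higher ones were 10.6% of theirs and 17.0% of all. Among all regions at most 100 kb from a protein-coding gene, the limit used for these genes, 20.4% were lower and 16% higher. The median difference in rank score, knockout minus control, was -0.0337 over the 66 regions and -0.0208 over all regions. Called differences had a median size of 0.271, beside 0.291 over all called regions. With the lists at their deposited lengths the calls were 24 lower and 5 higher of 71 regions, where 24.9% and 12% of all regions were called. With scores centred per library they were 15 lower and 8 higher, where 17.2% and 20.3% of all regions were. The calls were uneven between genes: Max had 8 lower and 2 higher of 19 regions, Mycn 7 and 2 of 13, Mxi1 1 and 2 of 10, Myc 1 and 1 of 11, Mxd1 1 lower of 3, and Mycl and Mga none of 5 each.

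**Figure D1:**
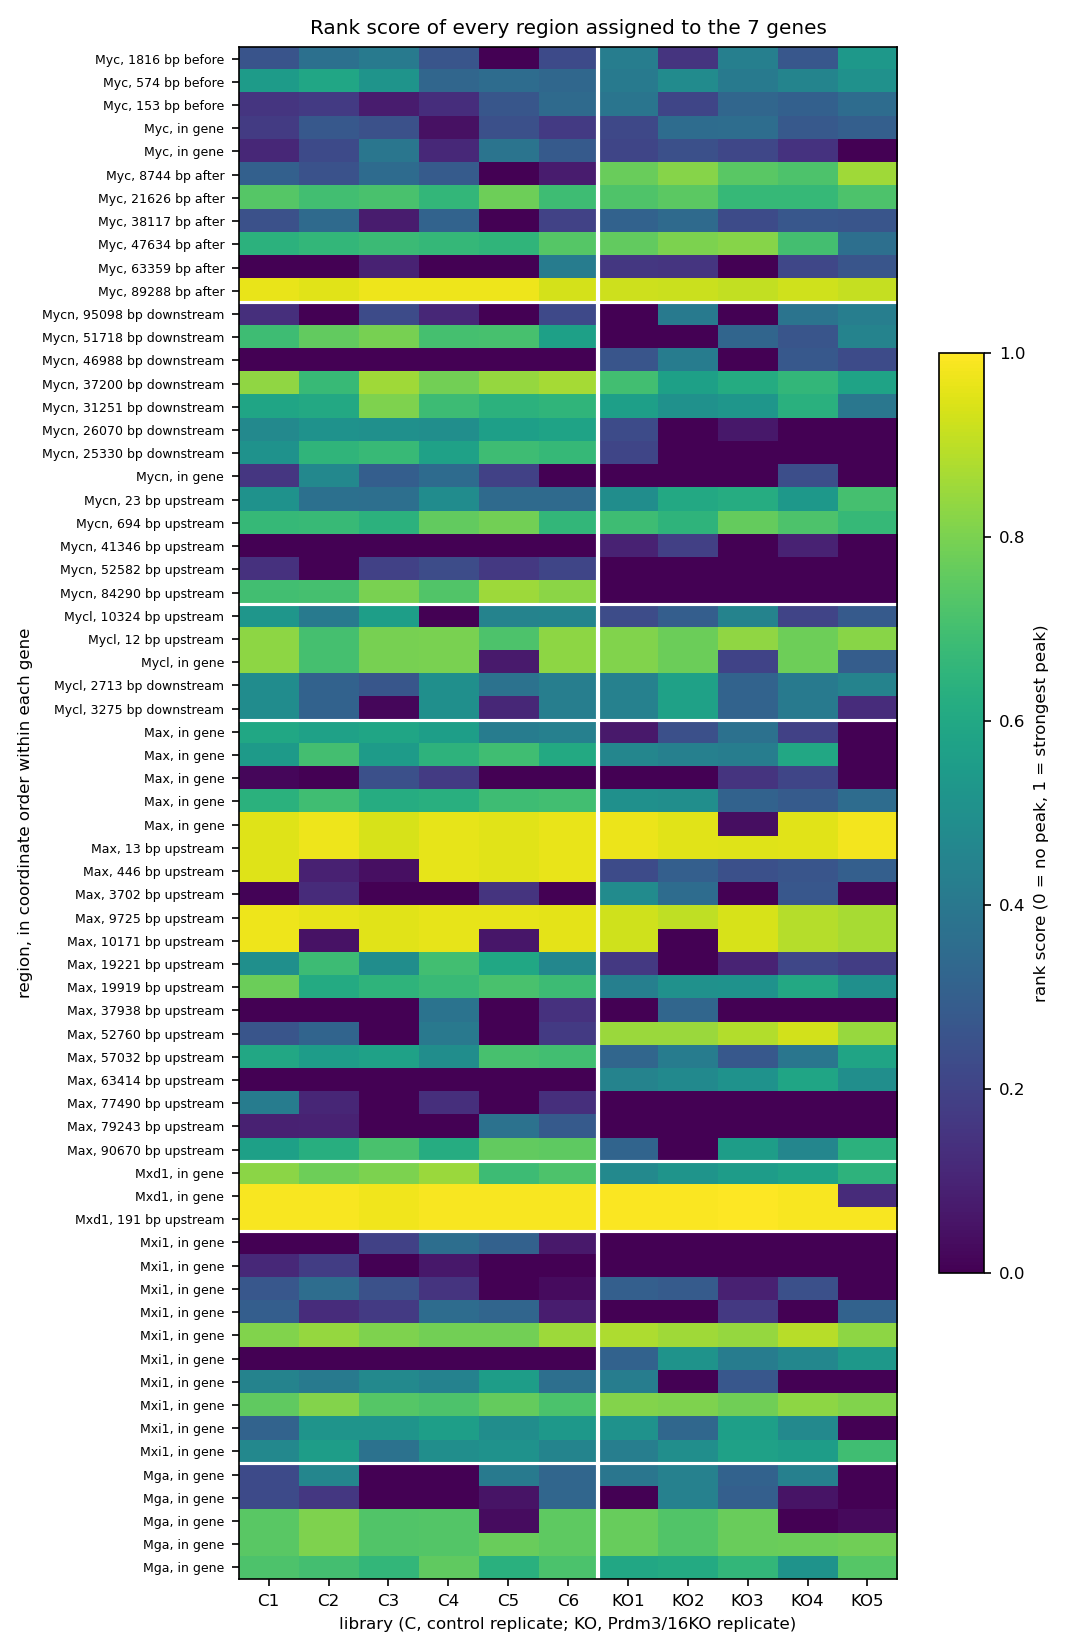
Rank score of each of the 66 regions (rows, in coordinate order within a gene, labelled by distance to the gene body) in the 6 control and 5 knockout libraries (columns), from 0 for no peak (dark) to 1 for the strongest peak (yellow). The region 84290 bp upstream of Mycn has a peak in every control library and none in a knockout library, and the regions 63414 bp upstream of Max and in the middle of Mxi1 show the reverse.

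Every control scored above every knockout in 11 of the 66 regions, where 12.1% of all regions did so, and every knockout above every control in 4, where 10.9% did. By presence alone, 14 regions could reach significance in Fisher's exact test. Of these, 3 had a peak in more controls and 3 in more knockouts after adjustment over all 24732 testable regions, where the shares were 23.9% and 23.3%. A peak in every control and no knockout was found in 1 region, as in 2.94% of all, and a peak in every knockout and no control in 2, as in 3.89% of all. The number of peaks assigned to the 7 genes was 56.5 ± 2.51 per control and 55.8 ± 2.49 per knockout (SD, n = 6 and 5), from 54 to 61 and from 52 to 59. The lists as deposited held 95414 ± 12561 peaks in controls and 81756 ± 5037 in knockouts, with ranges that overlapped. In them, the number assigned to the 7 genes was 72 ± 7.32 and 62.2 ± 5.93.

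**Figure D2:**
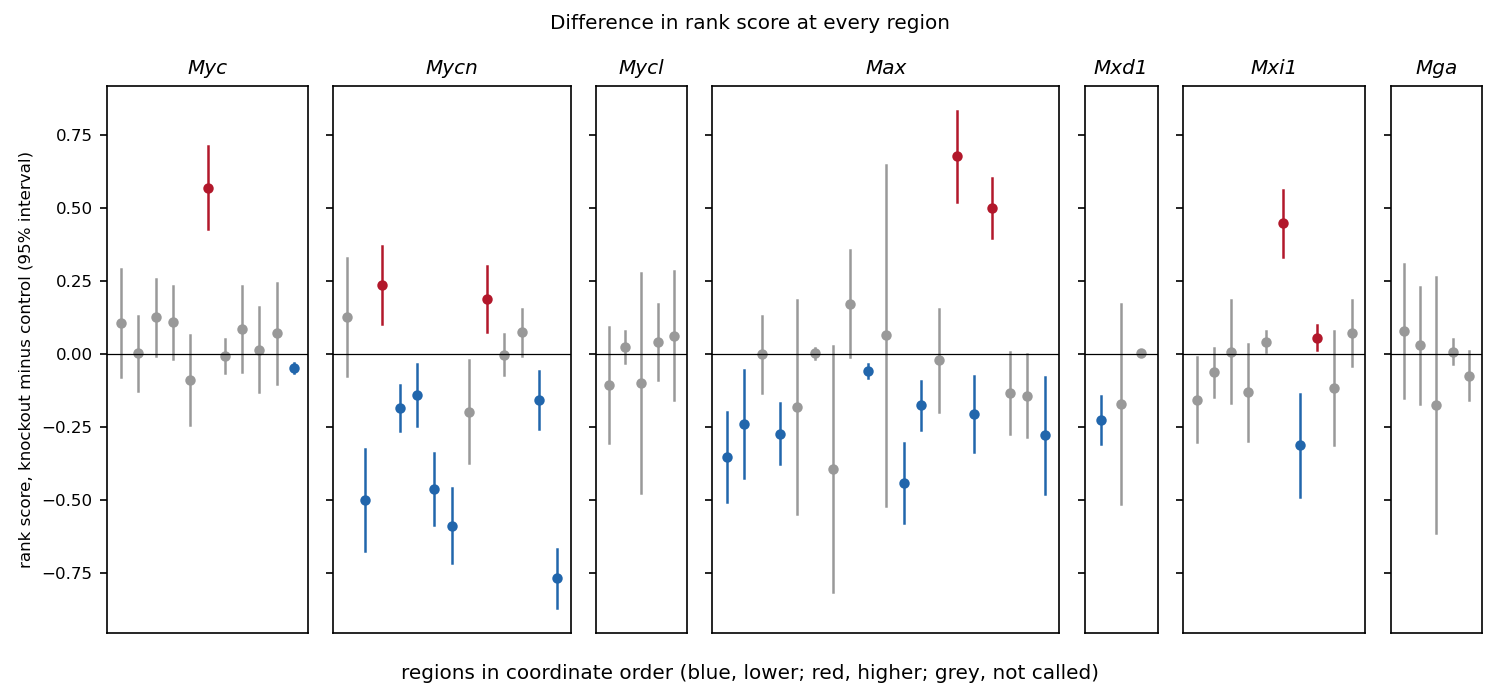
Difference in rank score, knockout minus control, with its 95% interval from limma, for every region in coordinate order within each gene. Blue points are called lower, red points higher and grey points neither. Most blue points belong to Mycn and Max, and the largest differences are the fall of 0.767 near Mycn and the rise of 0.678 near Max.

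Called differences were scarcer at gene ends, as they were over all regions. Over all regions, 16.2% of those at gene ends were called, 44% of those within gene bodies and 42.5% of those between genes. Classes follow the ends of the gene bodies, so the inner starts of Mxi1 and the RefSeq start of Mga count as within gene bodies. Of the 15 regions within 1 kb of a gene end, none was lower and 1 was higher, where 9.63% and 6.61% of all regions of that class were called. At unadjusted p under 0.05 limma had 1 lower and 1 higher, where 2770 and 2047 of all 19712 regions of that class were. Of the 19 regions within gene bodies, 5 fell and 2 rose, where 24.9% and 19.1% of the class were. Between genes 13 of 32 were lower and 4 higher, which is 40.6% and 12.5%, where 23.0% and 19.5% of the class were. At gene ends, 12 of those 15 regions had a peak in all 11 libraries, as did 14535 of 19712 over all regions. Within gene bodies 7 of 19 had one, where 12511 of 34885 of the class did. Between genes 10 of 32 had one, where 7166 of 21026 of the class did.

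**Figure D3:**
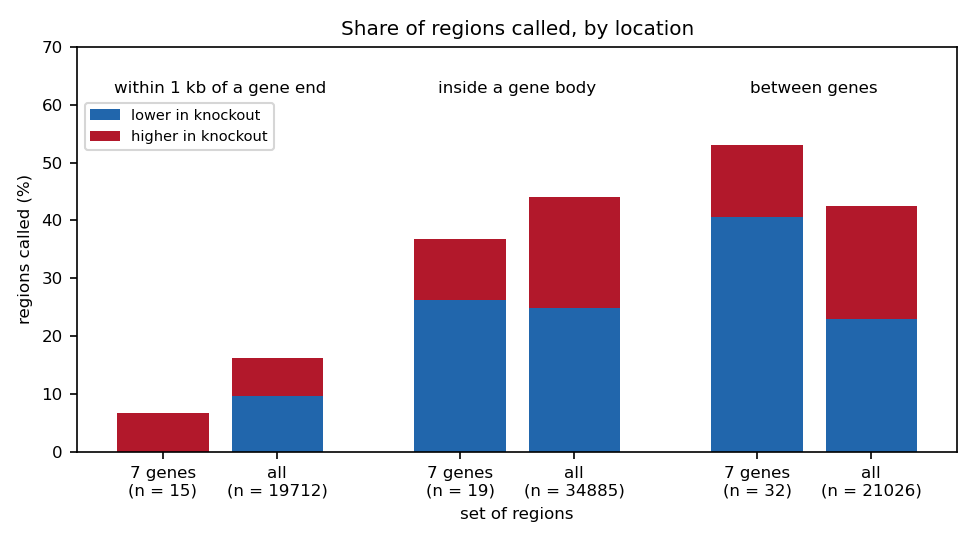
Share of regions called lower (blue) and higher (red) in the knockout, in percent, for the 7 genes and for all regions, by location. Between genes, 40.6% of the regions of the 7 genes are called lower, beside 23.0% of all regions of that class. Near gene ends, none of the 15 regions of the 7 genes is called lower, beside 9.63% of all regions of that class.

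At Mycn (chr12:12936093-12941836, gene 18109), the chromatin at the start stayed high while regions far from it on both sides fell. The mean score over its 13 regions ran from 0.415 to 0.473 in controls with a median of 0.438, and was 0.249, 0.257, 0.224, 0.293 and 0.266 in the knockouts. The groups did not overlap. Over all regions the mean score was 0.429 ± 0.0177 in controls and 0.41 ± 0.0129 in knockouts, a difference of -0.0197 beside the -0.181 at Mycn. The share of all genes whose means separate in this way is not given here.

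**Figure D4:**
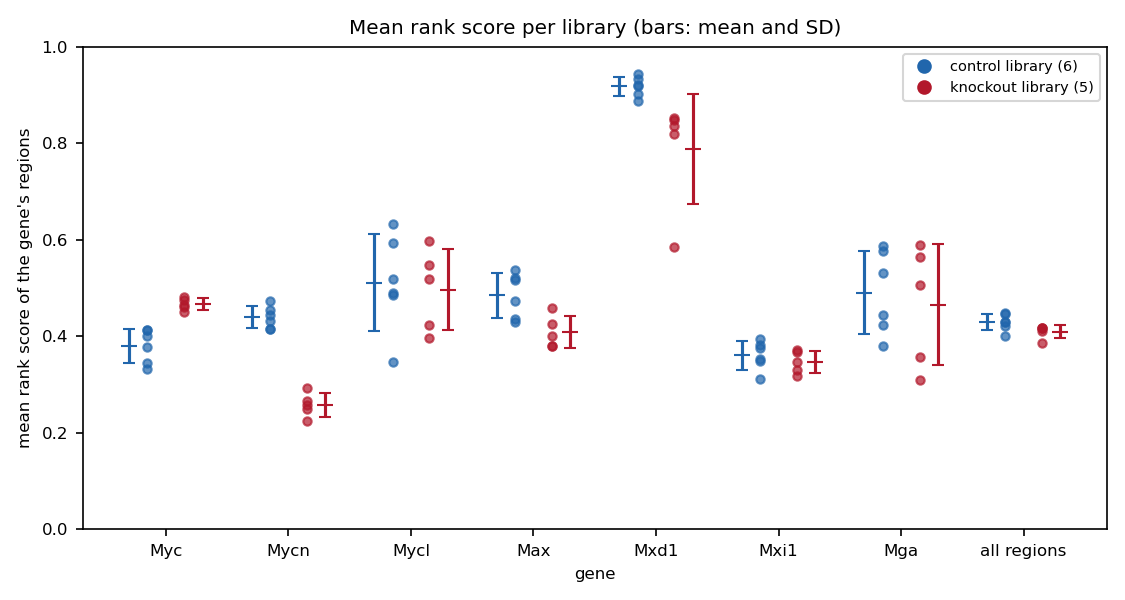
Mean rank score of the regions of each gene, 1 point per library, with the mean and SD of each genotype beside the points (6 controls in blue, 5 knockouts in red). The groups do not overlap for Myc, where knockouts are higher, and for Mycn and Mxd1, where they are lower. Of the 11 Myc regions 1 is called higher and 1 lower, and the largest contribution to the Myc difference comes from the former. The share of all genes that separate in this way is not given. The Mxd1 mean rests on 3 regions, and its lowest value, 0.586 in knockout replicate 5, includes a score of 0.123 at the window adjoining the start. The rightmost pair gives the mean over all regions.

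Upstream of Mycn, the region at chr12:13025926-13026325, 84290 bp from the gene, had scores of 0.696 to 0.853 in controls with a median of 0.762, and no peak in any of the 5 knockouts. The authors' fold enrichment, which they gave each peak relative to its own library, was 20.7 to 25.8 for the control peaks. No knockout list had a peak there at its deposited length either. The difference was -0.767 (95% interval -0.869 to -0.665, limma adjusted p = 4.93e-08), with a Fisher's exact adjusted p = 0.00941. A weaker region at chr12:12994218-12994617, 52582 bp upstream, scored 0 to 0.231 in controls with a median of 0.18, and had no peak in the knockouts. Since 1 control also lacked it, the groups touched at 0, and the difference of -0.157 had limma adjusted p = 0.0152, or 0.0643 with the replicate block.

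Downstream of Mycn, 5 of 7 regions were lower and 1 was higher, where 23.0% and 19.5% of all regions between genes were. The called ones downstream lay within 26.8 kb. With overlapping peaks merged, Mycn had 6 lower regions in place of 7. A close pair, 25330 and 26070 bp from the gene and inside the noncoding gene Gm40271, was lower throughout. At chr12:12910563-12910962 controls scored 0.509 to 0.689 with a median of 0.662, and knockouts 0.208, 0, 0, 0 and 0. At chr12:12909823-12910222 controls scored 0.471 to 0.581 with a median of 0.504, and knockouts 0.23, 0, 0.0644, 0 and 0. No knockout reached a control in either. The differences were -0.587 (95% interval -0.714 to -0.459) and -0.461 (-0.584 to -0.337), with limma adjusted p = 3.51e-06 and 2.37e-05. In lists cut to 36467 peaks, the second was -0.0511 with limma adjusted p = 0.268.

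The region 51718 bp downstream of Mycn, at chr12:12884175-12884574, scored 0.57 to 0.796 in controls with a median of 0.707, and 0, 0, 0.327, 0.263 and 0.447 in knockouts. The groups did not overlap, and the difference was -0.497 (95% interval -0.672 to -0.323, limma adjusted p = 0.000251). Nearer the gene, 46988 bp downstream at chr12:12888905-12889304, no control had a peak, and knockouts scored 0.265, 0.418, 0, 0.274 and 0.228. This was the greatest rise at Mycn, 0.237 (95% interval 0.103 to 0.371, limma adjusted p = 0.00847), present in 4 of 5 knockouts. Between these and the close pair, regions 37200 and 31251 bp downstream had a peak in all 11 libraries and lower scores in knockouts, by -0.183 and -0.138, with limma adjusted p = 0.00136 and 0.0397. The latter call was lost without control replicate 3, 4, 5 or 6 or knockout replicate 2, 3 or 5, with adjusted p from 0.0529 to 0.0908. It was also lost with the replicate block (-0.14, limma adjusted p = 0.0684), with centred scores (-0.119, 0.0681) and when peaks were ranked by the authors' fold enrichment (-0.0423, 0.58).

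At the start of Mycn, the region with the highest mean score, 694 bp upstream (chr12:12942330-12942729), scored 0.642 to 0.787 in controls with a median of 0.672, and 0.688, 0.65, 0.762, 0.721 and 0.67 in knockouts. The groups overlapped fully and the difference was -0.00114 (95% interval -0.0715 to 0.0692, limma adjusted p = 0.982). The window over the printed Mycn promoter, 23 bp upstream, was higher in knockouts by 0.189 with limma adjusted p = 0.0118. It lies beside the former window. When overlapping peaks were merged the difference was 0.00596 with limma adjusted p = 0.898, and with lists as deposited it was 0.104 with 0.136. With the replicate block the rise was 0.177 and its limma adjusted p was 0.0801. Inside the gene (chr12:12938739-12939138), 5 of 6 controls had a peak, at scores up to 0.466 with a median of 0.246, and of the knockouts only replicate 4 did, at 0.239. That difference of -0.197 was not called (limma adjusted p = 0.0747, Fisher's exact adjusted p = 0.124). It was called without control replicate 6 (-0.246, limma adjusted p = 0.023) or knockout replicate 4 (-0.244, 0.0347). The remaining regions, 95098 bp downstream and 41346 bp upstream, were not called either, and the latter had a peak in 0 of 6 controls and 3 of 5 knockouts.

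**Figure D5:**
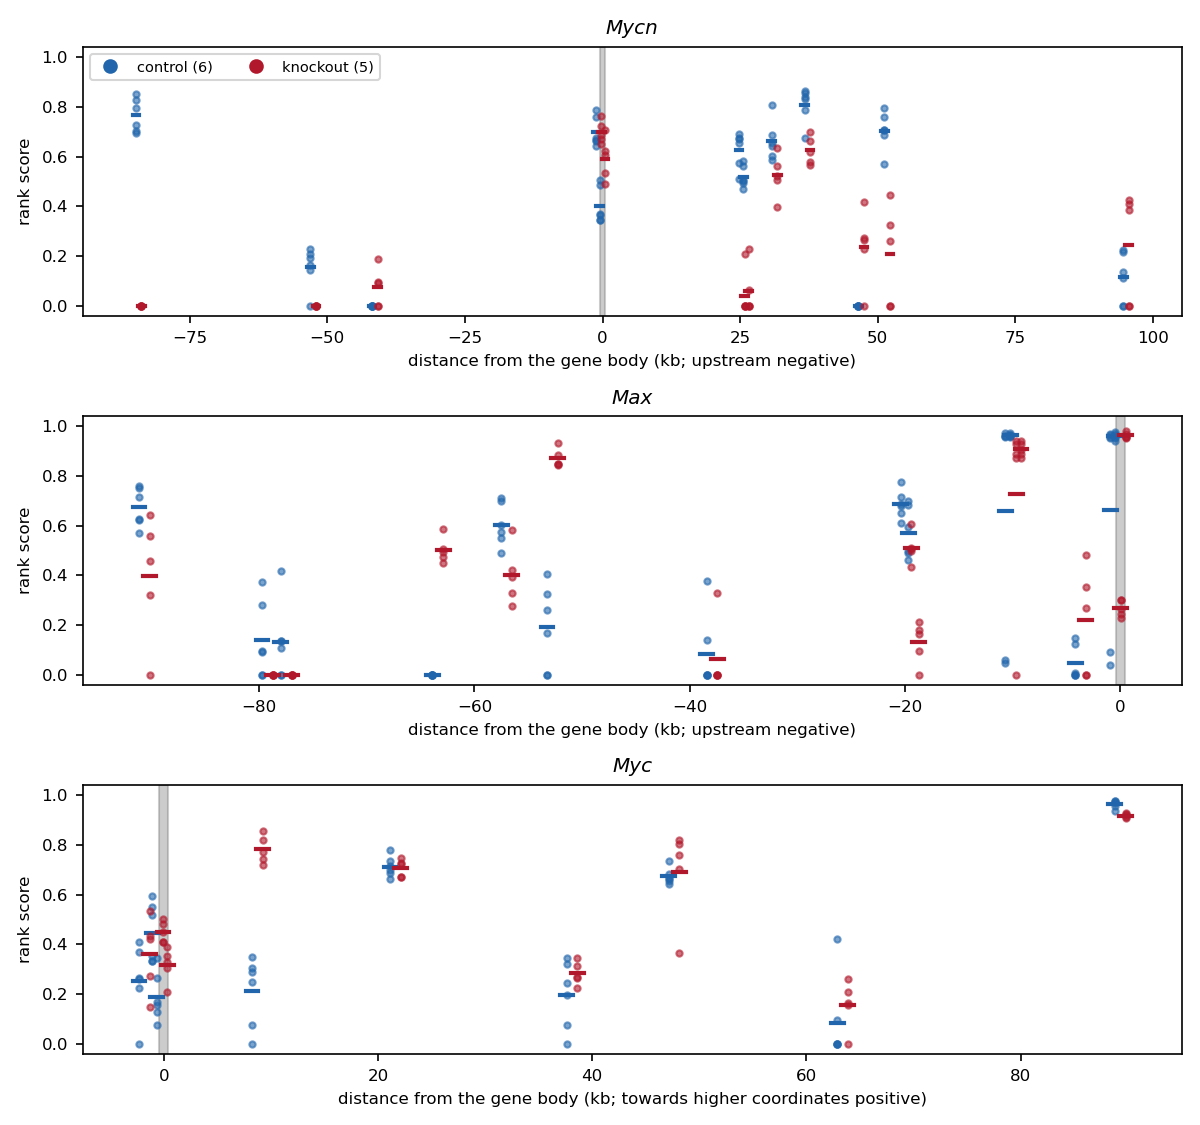
Rank scores of single libraries (points, control blue and knockout red, drawn side by side) and group means (bars) at regions outside the gene bodies of Mycn, Max and Myc, by distance from the gene body in kb (grey band, not to scale; regions inside genes are left out). At Mycn the regions near the gene overlap between genotypes, while those 84290 bp upstream and 25330 to 26070 bp downstream separate completely; at Max and Myc the separated red points above the blue ones mark the regions with the greatest rises.

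Max (chr12:76937269-76962323, gene 17187), the obligate partner of the other members, lies on the same chromosome as Mycn and had 8 lower and 2 higher of 19 regions. Its start was among the strongest peaks of every library. Ranking by the authors' fold enrichment gave 3 lower regions in place of 8. The window 13 bp upstream (chr12:76962136-76962535), over the printed promoter with its E box, scored 0.939 to 0.975 in controls with a median of 0.959, and 0.969, 0.955, 0.95, 0.956 and 0.981 in knockouts. The groups overlapped, and the difference was 0.0037 (95% interval -0.0144 to 0.0218, limma adjusted p = 0.761). The adjoining window 446 bp upstream was not called (-0.393, limma adjusted p = 0.129), and its score depends on where the summits of a wide peak fall. Control replicates 1, 4, 5 and 6 had the same scores there as at the start. Control replicates 2 and 3 scored 0.093 and 0.041, and knockouts 0.229 to 0.302. In the deposited lists, summits inside this window had fold enrichments of 2.07 to 3.63 in controls and 3.76 to 4.43 in knockouts. The window was called lower without control replicate 2 (-0.507, limma adjusted p = 0.0328) or 3 (-0.517, 0.0226). The region 3702 bp upstream was not called either (0.174, limma adjusted p = 0.126), but was without knockout replicate 5 (0.229, 0.0495).

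Both rises at Max lay upstream, 10654 bp apart. At chr12:77014883-77015282, 52760 bp upstream and inside the noncoding gene Gm35041, controls scored 0 to 0.404 with a median of 0.217, with a peak in 4 of 6. Knockouts there scored 0.848, 0.849, 0.883, 0.933 and 0.845, so that every knockout was far above every control. The difference was 0.678 (95% interval 0.522 to 0.834, limma adjusted p = 5.9e-06), and the authors' fold enrichment was 7.24 to 9.57 for the control peaks and 14.4 to 18.3 for the knockout peaks, each relative to its own library.

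The second rise near Max, at chr12:77025537-77025936 and 63414 bp upstream, had no peak in any control and scores of 0.449, 0.475, 0.508, 0.586 and 0.495 in the knockouts. At deposited lengths it was again found in 0 of 6 controls and 5 of 5 knockouts. The difference was 0.502 (95% interval 0.4 to 0.605, limma adjusted p = 2.02e-06), with a Fisher's exact adjusted p = 0.00941. The authors' fold enrichment of its peaks was 9.95 to 13.9. Neighbouring regions moved the other way: the region 57032 bp upstream was lower by -0.203 (limma adjusted p = 0.0167), and that 90670 bp upstream by -0.277 (0.0319). The last call was lost without control replicate 3, 5 or 6 or knockout replicate 1, with adjusted p from 0.0587 to 0.0713, and without knockout replicate 2 the difference was -0.178. It was also lost with ranking by fold enrichment (-0.186, limma adjusted p = 0.242), with centred scores (0.0503) and without the trend and robust options (0.0544). The call 57032 bp upstream was lost in lists cut to 36467 peaks (-0.178, limma adjusted p = 0.0638). A pair of regions between them in the noncoding gene Gm35189, 77490 and 79243 bp upstream, each had a peak in 4 of 6 controls and in no knockout. Their control medians were only 0.121 and 0.0944, and neither was called, with limma adjusted p = 0.125 and 0.108 and Fisher's exact adjusted p = 0.103 for both.

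The greatest fall at Max lay 19221 bp upstream, at chr12:76981344-76981743 in Gm35041, where controls scored 0.464 to 0.699 with a median of 0.547. Knockouts scored 0.166, 0, 0.0985, 0.214 and 0.18, below every control. The difference was -0.44 (95% interval -0.578 to -0.303, limma adjusted p = 9.06e-05). With lists cut to 36467 peaks it was -0.16, with limma adjusted p = 0.0924. The adjoining region 19919 bp upstream was lower by -0.175 (limma adjusted p = 0.00293), but was 0.0639 higher with limma adjusted p = 0.386 when peaks were ranked by the authors' fold enrichment. The region 9725 bp upstream stayed among the strongest peaks, at 0.955 to 0.973 in controls and 0.871 to 0.941 in knockouts, with a small difference of -0.0565 (limma adjusted p = 0.00144), which was -0.0143 with 0.52 when peaks were ranked by fold enrichment.

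Inside the Max gene 3 of 5 regions were lower, where 24.9% of all regions within gene bodies and 9.63% of those at gene ends were. With overlapping peaks merged, Max had 6 lower regions in place of 8. At chr12:76948163-76948562 controls scored 0.419 to 0.594 with a median of 0.565, and knockouts 0.067, 0.245, 0.373, 0.194 and 0. At chr12:76953998-76954397 controls scored 0.618 to 0.698 with a median of 0.663, and knockouts 0.503, 0.495, 0.315, 0.288 and 0.354. Neither pair of groups overlapped, and the differences were -0.352 and -0.271, with limma adjusted p = 0.00146 and 0.000516. The third region, at chr12:76948862-76949261, differed by -0.24 (limma adjusted p = 0.0416), by -0.144 without knockout replicate 5, which had no peak there, and was not called without control replicate 2, 4, 5 or 6 or knockout replicate 1, 2 or 3 (adjusted p 0.0509 to 0.0781). Nor was it called with the replicate block (-0.243, limma adjusted p = 0.0793), without the trend and robust options (0.0618) or without the filter on libraries (0.0549). Ranked by the authors' fold enrichment, the differences inside the gene were -0.176, -0.0923 and -0.0776 in that order, none of them called (limma adjusted p = 0.0698, 0.237 and 0.564).

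Myc (chr15:61985341-61990361, gene 17869), the founding member of the family, went the other way from Mycn in its mean score. It ran from 0.332 to 0.413 over the 11 regions in controls, with a median of 0.389, and was 0.482, 0.476, 0.465, 0.45 and 0.461 in knockouts, without overlap. Here too, the share of all genes that separate is not given. The largest single contribution came from 1 region. At chr15:61998905-61999304, 8744 bp beyond the gene on the side of the noncoding gene Pvt1, controls scored 0 to 0.348 with a median of 0.269, and knockouts 0.772, 0.819, 0.744, 0.72 and 0.856. Every knockout was far above every control, and 5 of 6 controls had a peak there. The difference was 0.571 (95% interval 0.428 to 0.713, limma adjusted p = 1.26e-05).

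The other called region of Myc lies 89288 bp beyond the gene, inside Pvt1 (chr15:62079449-62079848), and was one of the strongest peaks in all libraries. Controls scored 0.937 to 0.976 with a median of 0.97, and knockouts 0.923, 0.918, 0.908, 0.926 and 0.911. The groups did not overlap but lay close, and the difference of -0.0464 (limma adjusted p = 0.000753) was -0.0267 with limma adjusted p = 0.143 once scores were centred per library. At the gene end the region with the highest mean score, 574 bp before the gene (chr15:61984567-61984966), scored 0.332 to 0.593 in controls with a median of 0.437. Knockouts scored 0.41, 0.481, 0.408, 0.452 and 0.504, within the range of the controls, and the difference was 0.00359 (95% interval -0.126 to 0.133, limma adjusted p = 0.97). Of the remaining 8 regions none was called, with differences from -0.0882 inside the gene to 0.127 at the window 153 bp before it. Those 21626 and 47634 bp beyond the gene were strong in both genotypes, at 0.713 ± 0.0401 and 0.674 ± 0.0334 in controls and 0.707 ± 0.0349 and 0.69 ± 0.188 in knockouts (SD, n = 6 and 5). The wide spread in the last group came from knockout replicate 5, which scored 0.364 where the other knockouts scored at least 0.703. Without that library the region 47634 bp beyond the gene was called higher, at 0.0976 with limma adjusted p = 0.0197, where all libraries gave 0.0161 with 0.874.

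No region of Mycl (chr4:122995588-123002490, gene 16918) was called by limma, and none had an unadjusted p under 0.05 by limma either. Mycl had no region that could reach significance in Fisher's exact test, so that test says nothing on it. The region at its start (chr4:122995376-122995775) scored 0.705 to 0.832 in controls with a median of 0.795, and 0.811, 0.777, 0.834, 0.779 and 0.824 in knockouts. The groups overlapped, and the difference was 0.0252 (95% interval -0.0297 to 0.0802, limma adjusted p = 0.462). Its other 4 regions had intervals that also included 0, the widest of them from -0.476 to 0.278 at a window beside the start whose score depends on where the summit of one wide peak falls. Differences within these intervals could not be resolved with these libraries. Without control replicate 4, which had no peak 10324 bp upstream, that region was called lower, at -0.185 with limma adjusted p = 0.033, where all libraries gave -0.105 with 0.393.

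Mxd1 (chr6:86647044-86669234, gene 17119), a repressor that rises in many cells as they differentiate, had the strongest start of the 7 genes. The window 191 bp upstream (chr6:86669225-86669624) scored 0.979 to 0.991 in controls with a median of 0.99, and 0.993, 0.995, 0.997, 0.991 and 0.991 in knockouts. The difference was 0.00495 (95% interval -0.00583 to 0.0157, limma adjusted p = 0.462). When peaks were ranked by the authors' fold enrichment it was called higher, at 0.046 with limma adjusted p = 0.04. Inside the gene, at chr6:86653037-86653436, controls scored 0.687 to 0.849 with a median of 0.792, and knockouts 0.471, 0.519, 0.554, 0.575 and 0.645. Every knockout was below every control, and the difference was -0.225 (95% interval -0.307 to -0.143, limma adjusted p = 0.000335). The third window adjoins the start under the same peak and scored 0.123 in knockout replicate 5 and at least 0.979 in the other 10 libraries.

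Mxi1 (chr19:53310128-53373293, gene 17859), a repressor of the Mxd group, had all 10 of its regions inside the gene body, 7 of them also in the noncoding gene Gm30541. At chr19:53320880-53321279 no control had a peak, and knockouts scored 0.314, 0.515, 0.421, 0.462 and 0.535. The deposited lists gave the same 0 of 6 and 5 of 5. The difference was 0.449 (95% interval 0.335 to 0.564, limma adjusted p = 1.52e-05), with a Fisher's exact adjusted p = 0.00941. At chr19:53325568-53325967 controls scored 0.367 to 0.558 with a median of 0.445, and knockouts 0.424, 0, 0.27, 0 and 0. Knockout replicate 1 lay within the controls, and the difference was -0.311 (limma adjusted p = 0.00876), or -0.0986 with 0.209 when peaks were ranked by the authors' fold enrichment. The strongest region of the gene by mean score, chr19:53314087-53314486, had a peak in all libraries, at 0.815 ± 0.0275 in controls and 0.859 ± 0.0245 in knockouts, and its difference of 0.0438 was not called (limma adjusted p = 0.0531). Without control replicate 2 or 6 or knockout replicate 5 it was, at 0.0489 to 0.0517 with limma adjusted p from 0.0258 to 0.0424.

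The starts of Mxi1 differed in their peaks. Over the first start printed above (chr19:53310241-53310640), 4 of 6 controls had a peak, at scores up to 0.362 with a median of 0.13, and no knockout had one. The difference of -0.155 was not called (limma adjusted p = 0.0856), and was called with lists as deposited (-0.27, limma adjusted p = 0.0462), with a -log10 q of at least 5 (-0.232, 0.0499), and without control replicate 1 or 2 (-0.186 each, 0.0481 and 0.0475). Over the inner starts (chr19:53329317-53329716) all 11 libraries had a strong peak, at 0.718 to 0.815 in controls with a median of 0.747 and 0.814, 0.806, 0.783, 0.831 and 0.809 in knockouts. The groups overlapped, and a rise of 0.057 was called with limma adjusted p = 0.0389. That call was lost without control replicate 1, 3, 4 or 6 or knockout replicate 1, 2, 4 or 5, with adjusted p from 0.0547 to 0.0889, and with the replicate block, with limma adjusted p = 0.123.

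No region of Mga (chr2:119872503-119970129, gene 29808), the largest gene of the 7, was called by limma, which gave none an unadjusted p under 0.05. Mga too had no region that could reach significance in Fisher's exact test. Its peak at the RefSeq start (chr2:119897094-119897493), which lies inside the gene body of the table, scored 0.73 to 0.807 in controls with a median of 0.748, and 0.767, 0.727, 0.771, 0.776 and 0.784 in knockouts. The groups overlapped, and the difference was 0.00851 (95% interval -0.0344 to 0.0514, limma adjusted p = 0.768). At the edge of the gene body with the lowest coordinates (chr2:119872555-119872954), upstream of that start, controls scored 0 to 0.458 with a median of 0.277, and knockouts 0.392, 0.441, 0.315, 0.436 and 0. The difference of 0.08 had a limma adjusted p = 0.582, and ran from 0.0326 without control replicate 3 or 4 to 0.159 without knockout replicate 5, never called. Without knockout replicate 5, the region at chr2:119898272-119898671 was called lower, at -0.101 with limma adjusted p = 0.0428, where all libraries gave -0.0728 with 0.152.

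Among genes around the family, the 6 further partners of Max and Mlx (Mlx, Mlxip, Mlxipl, Mnt, Mxd3 and Mxd4) had 3 lower, 1 higher and 18 uncalled of 22 regions, with a median difference of -0.000177. Mlxip, a glucose-sensing partner of Mlx, fell at chr5:123404474-123404873 from 0.639 ± 0.0457 in controls to 0.0501 ± 0.112 in knockouts (limma adjusted p = 3.38e-06), and its relative Mlxipl rose at chr5:135118567-135118966 from 0.435 ± 0.156 to 0.799 ± 0.034 (0.000508). Mnt, a repressor that pairs with Max, had 1 region with a peak in every control, at 0.259 ± 0.0802, and in no knockout (limma adjusted p = 0.00126). Shares of called regions here were 13.6% lower and 4.55% higher, against 20.8% and 17.0% of all regions.

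The 20 cofactors and regulators of Myc stability had 11 lower, 10 higher and 57 uncalled of 78 regions, with a median difference of 0.00185. These shares are 14.1% and 12.8%, against 20.8% and 17.0% of all regions. Fbxw7, which marks Myc for degradation, had 4 lower and 4 higher of 12 regions: inside its gene body it fell at chr3:84839514-84839913 from 0.511 ± 0.175 to no peak in any knockout (limma adjusted p = 0.000154) and rose at chr3:84883784-84884183 from 0.014 ± 0.0342 to 0.509 ± 0.0647 (4.26e-06). Skp2, another ubiquitin ligase subunit that acts on Myc, had 3 lower and 1 higher of 6, and its rise at chr15:9143564-9143963 was from 0.146 ± 0.166 to 0.824 ± 0.0871 (limma adjusted p = 1.17e-05). Bptf, a subunit of a chromatin remodeller, had 2 lower and 1 higher of 9.

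The 11 genes of the complex of Mga with Polycomb proteins had 14 lower, 3 higher and 35 uncalled of 52 regions, with a median difference of -0.0594. Lower regions were 26.9% and higher ones 5.77%, against 20.8% and 17.0% of all regions. Rybp, a Polycomb subunit, held 11 of the 14 lower regions and 1 higher region among its 23. The latter, 47234 bp from the gene at chr6:100181131-100181530, had no peak in controls and 0.508 ± 0.0951 in all 5 knockouts (limma adjusted p = 6.24e-06). Rnf2, a ubiquitin ligase of Polycomb complexes, rose at chr1:151487058-151487457 from 0.274 ± 0.136 to 0.806 ± 0.0223 (limma adjusted p = 1.14e-05), and Hdac2, a histone deacetylase, fell in 2 of 5 regions.

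The 25 known Myc target genes had 9 lower, 10 higher and 68 uncalled of 87 regions, with a median difference of -0.0172. The shares were 10.3% lower and 11.5% higher, against 20.8% and 17.0% of all regions. Hk2, the hexokinase of glycolysis in growing cells, held 6 of the 10 higher regions among its 15. At chr6:82798296-82798695, 24042 bp from Hk2, no control had a peak and all 5 knockouts did, at 0.759 ± 0.0302 (limma adjusted p = 3.53e-08). Eif4e, the cap-binding translation factor, had 4 lower of 12 regions, with the greatest fall from 0.812 ± 0.0235 to 0.431 ± 0.092 (limma adjusted p = 4.76e-06). Ldha, lactate dehydrogenase, had 2 lower of 4, with the greatest from 0.773 ± 0.0512 to 0.441 ± 0.0673 (1.26e-05).

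The protein-coding genes on either side of the 7 genes had 23 lower, 13 higher and 57 uncalled of 93 regions. That is 24.7% lower and 14% higher, beside 27.3% and 10.6% for the 7 genes and 20.8% and 17.0% for all regions. Next to Mycn, Cyria had 3 lower and 4 higher of 17 regions, and Ddx1 had 1 lower of 7. Next to Max, Fntb had 2 lower of 5, and Fut8 had 3 lower and 1 higher of 12. The gaps to these protein-coding neighbours are long at Mycn, 555 kb towards Cyria and 277 kb towards Ddx1, and at Myc, where they were 1064071 bp towards A1bg and 1785610 bp towards Gsdmc. Regions were assigned by distance alone, and contact with a gene was not measured.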

How the data were processed

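One peak list per library was used, as deposited by the authors. The submitters' processing notes list DiffBind 3, MACS2, deepTools and mm10 and give no roles. Aligner, peak-calling options and depth: not given in the sources used here. Each peak has a deposited score without a unit (not used), a fold enrichment (a ratio) by the authors, and the authors' -log10 p and -log10 q. All depend on depth, so precision was judged only from the spread between libraries.

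Lists were cut to 72935 peaks by -log10 p and scored by rank. Windows of 400 bp on summits were kept where at least 3 libraries had a peak that overlapped by at least 100 bp. Of the 66 windows of these genes, 21 had a neighbour within 600 bp, and a wide peak can fill both. Genes were the 21887 protein-coding genes of the RefSeq table of GRCm38.p6, and a summit within several genes went to the shortest. The limma fit (version 3.58.1, R 4.3.3, trend and robust) had genotype as its only term and covered all regions. Fisher's exact test (two-sided) was used for presence. Benjamini-Hochberg adjustment ran over all regions tested, at 0.05. The fit was tested on simulated scores with shifts at regions of middling mean score. That does not cover differences in which a genotype has no peak at all. Python 3.11.15, pandas 2.3.3, numpy 2.4.6 and scipy 1.17.1 did the rest.

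Members and gene lists were chosen with earlier results of these data known. The naming rule took, per gene, the end region with the highest mean score, the greatest called fall and rise, and every region found in all libraries of one genotype and none of the other, and from each partner list the 3 genes with most called regions. Other regions were chosen after their values were seen. Alternatives changed list length, q threshold, ranking, overlap, library filter, merging, presence, centring, limma options, replicate block, distance, overlapping genes and single libraries.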

Additional observations from a re-analysis of the deposited data

Results flagged for a closer look

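A library stood apart from the rest of its group in 6 of 87 groups of values checked, and chance alone marks about 1 in 20. In the close pair of regions downstream of Mycn, knockout replicate 1 kept a peak, with a rank score of 0.23 at 26070 bp, where the other knockouts scored 0 to 0.0644, and of 0.208 at 25330 bp, where the others scored 0. At the start of Mxd1, control replicate 3 scored 0.979 and the other controls 0.989 to 0.991. At the edge of the Mga gene body with the lowest coordinates, knockout replicate 5 scored 0 and the other knockouts 0.315 to 0.441. Knockout replicate 5 also had a mean score of 0.586 over the 3 regions of Mxd1, where the other knockouts had 0.819 to 0.852, and had 3 peaks assigned to Mxd1, where the others had 2. In that library the window next to the start scored 0.123, and the start itself 0.991.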

How the results depend on the processing

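Of the 25 called regions, 21 kept their call without each library in turn, and the 4 others are named with their values in the report. The count of lower regions was 18, and 15 to 19 without single libraries; that of higher regions was 7, and 6 to 9. Ranking by the authors' fold enrichment gave 11 lower regions, and turned the region 19919 bp upstream of Max to 0.0639. Presence in place of rank gave 6 lower and 3 higher, and 19 of the 25 called regions lost their call. Part of this follows by construction, since presence gives a region with a peak in all libraries no difference. Some of the 6 were not called by rank: 2 at Max, outside the 8 lower ones there, and the first start of Mxi1. Lists cut to 36467 peaks gave 2 higher regions by rank, with fewer regions tested, and 6 regions with a peak in more controls by Fisher's exact test. By that test 3 regions had a peak in more controls, and 1 to 2 without single libraries, with 1 without control replicate 1, 3, 4, 5 or 6 or knockout replicate 2, 3, 4 or 5. Smaller groups raise the lowest p it can reach. The difference in assigned peaks, -0.7, was -9.8 with lists as deposited. For changes other than those explained here by construction, the cause was not tested.

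With the replicate block, 16 regions were lower and 6 higher. Deviations of libraries with the same number correlated at 0.0517, -0.000482, -0.0234, 0.00416 and 0.139, and not every library correlated best with its own number, so the numbers were not taken as pairs. In 10 of the 25 called regions the call held under every alternative that had the region, presence aside: at Mycn those 84290 bp upstream and 25330, 37200, 46988 and 51718 bp downstream, at Max those 52760 and 63414 bp upstream, at Myc that 8744 bp away, and 1 each in Mxd1 and Mxi1. Read depth is unknown, and a peak missing from a list can be one that was too weak to be called in it.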
